A study of Mus musculus with 10 samples.

Results

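The cytosolic ribosomal protein genes were read in mature B cells sorted from mouse bone marrow. The set was chosen by symbol: the protein-coding genes named Rpl or Rps with a number and an optional letter a, l or x, together with Rplp0, Rplp1, Rplp2 and Rpsa. Ribosomal S6 kinases and pseudogenes were left out. Of the 81 genes that meet this rule in the GENCODE M21 annotation of GRCm38, 79 were among the 14450 listed genes, and Rpl3l and Rpl39l were not listed. The 79 members comprise 31 genes of the small subunit and 48 of the large subunit, stalk proteins included. The symbol rule used no measured value.

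The cells were 5 libraries of Chat+ mature B cells, set against 5 libraries of Chat- mature B cells. Both came from steady-state Chat-GFP mice, a strain with a green fluorescent reporter for choline acetyltransferase, and were separated by flow cytometry, so both groups carry the reporter. The sources used here give neither age and sex nor the gate for mature B cells. Whether each library came from its own animal is not stated, and p-values then speak only of the spread among these libraries, which may be technical.

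The cytosolic ribosome joins a small subunit, which reads the mRNA, to a large subunit, which forms the peptide bond. Each subunit is built in the nucleolus from ribosomal RNA and about equal amounts of each ribosomal protein. In mammals most of these mRNAs begin with a terminal oligopyrimidine tract, through which mTORC1 and LARP1 govern their translation, and lymphocytes make more ribosomes when they are activated. Mammalian genomes also carry many retroposed copies of these genes.

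Chat, the gene that the reporter follows, had 79.5, 71.8, 111, 59.9 and 31.1 CPM (counts of reads scaled to a library total of 1000000) in the Chat+ libraries, against 7.93, 5.15, 19.7, 3.54 and 1.17 CPM in the Chat- libraries. The groups did not overlap, with a log2 fold change of 3.64 ± 0.59 (SE) and an adjusted p of 0.087 in limma. The 6 B cell markers summed to 9152 to 9667 CPM in Chat+ and 9426 to 9867 CPM in Chat-. Of 6 T cell markers only Cd4 was listed, at no more than 1.27 CPM. The estimated depth was 21520000 to 30050000 reads per library. Chat- replicate 4 stood apart: mitochondrially encoded transcripts made up 11.9% of it and at most 3.85% of any other library, and 1213 genes sat at its lowest value, against 62 to 682 in the others. Values of the family, of the lists and of named members that rest on this library are also given without it. In bulk samples, fewer cells of a type and less RNA per cell cannot be told apart.

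The widest spread between libraries belonged to Rps27, and the coding sequences of Rps27 and 2 related genes are shown, from GENCODE M21 on GRCm38, because a pair of them cannot be told apart by reads within it. Rps27 encodes a zinc finger protein of the small subunit (chr3:90212522-90213651, minus strand). Rps27rt, a retroposed gene outside the symbol rule (chr9:114982366-114982739, minus strand), has the same coding sequence, with 0 of 255 bases differing. Rps27l, a paralog with its own introns (chr9:66946086-66949516, plus strand), differs from Rps27 at 61 of 255 bases, shown in capitals, and at 3 of 84 residues.
Rps27: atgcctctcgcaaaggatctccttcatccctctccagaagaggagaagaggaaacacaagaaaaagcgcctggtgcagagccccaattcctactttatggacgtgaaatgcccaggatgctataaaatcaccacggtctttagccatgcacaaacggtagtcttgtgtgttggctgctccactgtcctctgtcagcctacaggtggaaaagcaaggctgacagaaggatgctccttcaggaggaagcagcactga
Rps27rt: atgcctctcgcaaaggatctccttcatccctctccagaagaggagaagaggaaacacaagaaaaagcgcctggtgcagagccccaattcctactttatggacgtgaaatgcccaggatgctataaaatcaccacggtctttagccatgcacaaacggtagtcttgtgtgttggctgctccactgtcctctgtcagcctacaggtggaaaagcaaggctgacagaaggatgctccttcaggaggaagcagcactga
Rps27l: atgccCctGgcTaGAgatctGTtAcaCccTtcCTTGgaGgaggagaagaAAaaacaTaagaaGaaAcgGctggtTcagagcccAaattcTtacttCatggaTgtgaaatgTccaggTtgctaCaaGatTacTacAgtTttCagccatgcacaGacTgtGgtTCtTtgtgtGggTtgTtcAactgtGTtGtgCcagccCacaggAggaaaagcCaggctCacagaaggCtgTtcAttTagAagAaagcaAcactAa

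As a family, the ribosomal protein genes had slightly higher levels in Chat+ than in Chat- cells, but no member passed the test. The mean log2 level was higher in Chat+ for 74 of 79 members, or 93.7% of them, against 57% of all listed genes. The median log2 fold change was 0.21, a fold of 1.16, against 0.04 over all listed genes. The quartiles of the members were 0.14 and 0.30, and the extremes were -0.16 for Rps12 and 1.77 for Rps27.

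In limma with Benjamini-Hochberg adjustment over all 14450 genes, 0 of 79 members passed an adjusted p of 0.05, and 0.00692% of all genes did, which is 1 gene. The smallest adjusted p of a member was 0.99. At an unadjusted p under 0.05, 4 members were higher in Chat+ (5.06% of members, against 3.49% of all genes) and 0 were lower (against 1.01% of all genes), so the share of members was near the background. That count of 4 was 1 without Chat+ replicate 2 or 5, 2 without Chat+ replicate 3, Chat- replicate 2 or Chat- replicate 4, 0 without Chat- replicate 3, 7 without Chat- replicate 5 and 16 without Chat- replicate 1. No member's 5 Chat+ values lay wholly above or wholly below its 5 Chat- values, whereas 1.12% of all genes had groups that did not overlap with Chat+ above, and 0.304% with Chat+ below. The 95% confidence interval of the log2 fold change lay within ±1 for 75 of 79 members, against 9312 of all 14450 genes. That bounds these members to less than a 2-fold difference either way, which is wide beside the family's median of 0.21.

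**Figure D1:**
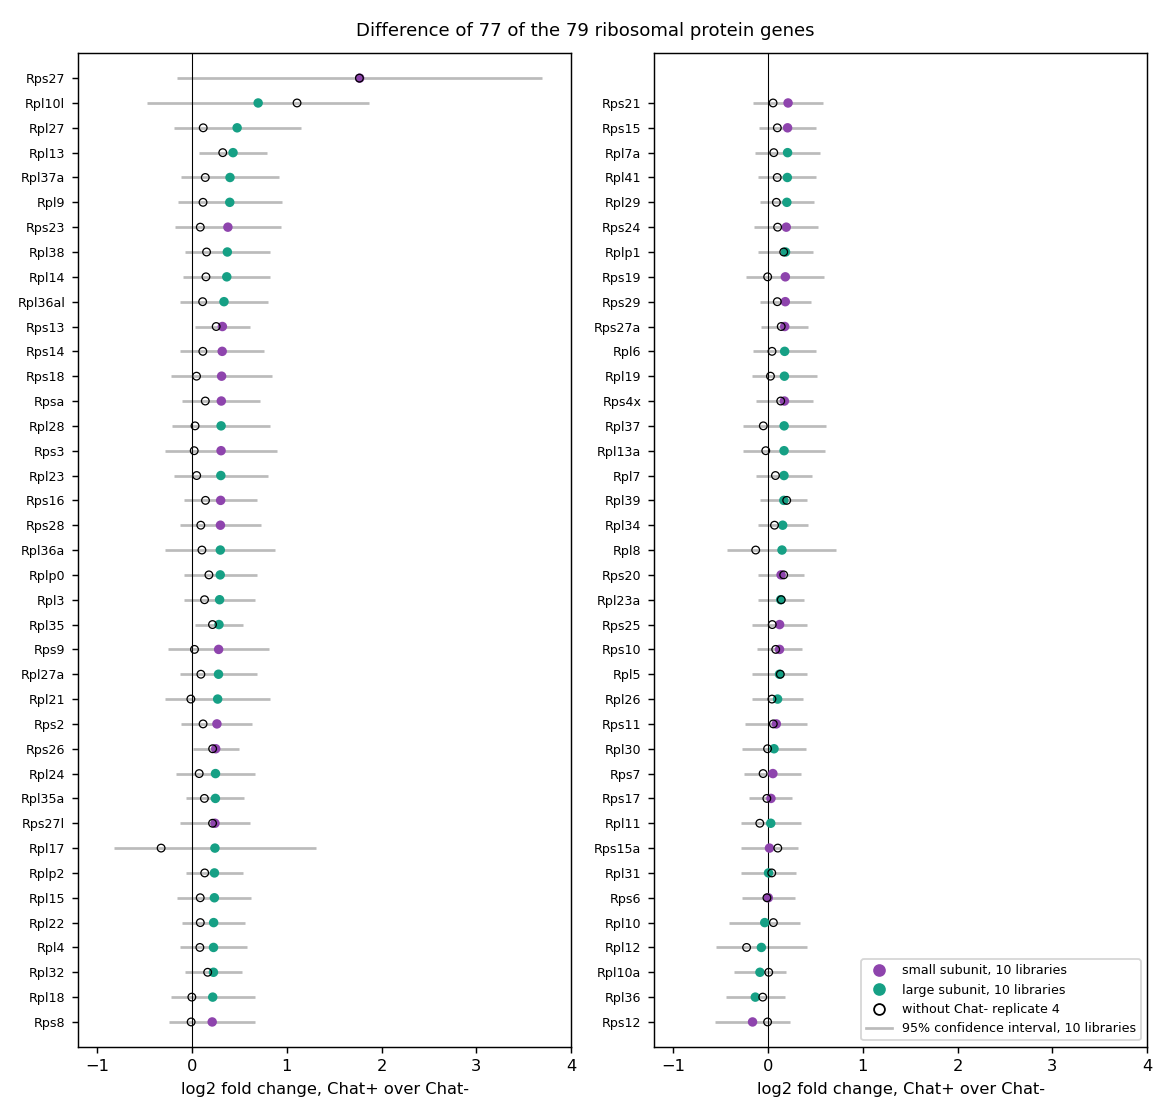
Log2 fold change of 77 of the 79 genes, Chat+ over Chat- (x axis), ordered from highest to lowest down 2 columns; filled points are from all 10 libraries, purple for the small and green for the large subunit, grey lines are 95% confidence intervals, and open circles are without Chat- replicate 4. Most filled points lie a little right of 0 around the median of 0.21, and most open circles lie nearer to 0, around 0.09.

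The family's share of each library shows how the difference was made up. Ribosomal protein mRNAs took 6.15%, 6.56%, 5.98%, 5.85% and 7.06% of the CPM in Chat+ replicates 1 to 5, against 6.48%, 5.62%, 5.27%, 3.95% and 6.58% in Chat- replicates 1 to 5. The ranges overlapped: Chat- replicates 1 and 5 each stood above at least 3 of the 5 Chat+ libraries. Chat- replicates 2, 3 and 4 lay below every Chat+ library, and Chat- replicate 4 was the lowest of all. The mean share was 6.32% ± 0.492 over the Chat+ libraries and 5.58% ± 1.07 over the Chat- libraries (SD, n = 5 each), a difference of 0.741 percentage points. Without Chat- replicate 4 the Chat- mean was 5.99% ± 0.646 (SD, n = 4), and the difference was 0.332 points, smaller than either SD.

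Large and small subunit mRNAs kept a steady ratio. Large subunit mRNAs made up 3.41% ± 0.239 of Chat+ and 3.02% ± 0.573 of Chat- libraries, and small subunit mRNAs made up 2.92% ± 0.253 of Chat+ and 2.56% ± 0.499 of Chat- libraries (SD, n = 5 each). The ratio of large to small subunit mRNA was 1.17 ± 0.0224 in Chat+ and 1.18 ± 0.0175 in Chat-, and it stayed within 1.14 to 1.21 over all 10 libraries. The median log2 fold change was 0.21 for the small subunit, with 30 of 31 genes higher in Chat+, and 0.22 for the large subunit, with 44 of 48 higher. Leaving out Chat- replicate 4, the medians were 0.10 for the small subunit, with 25 of 31 higher, and 0.09 for the large subunit, with 39 of 48 higher.

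**Figure D2:**
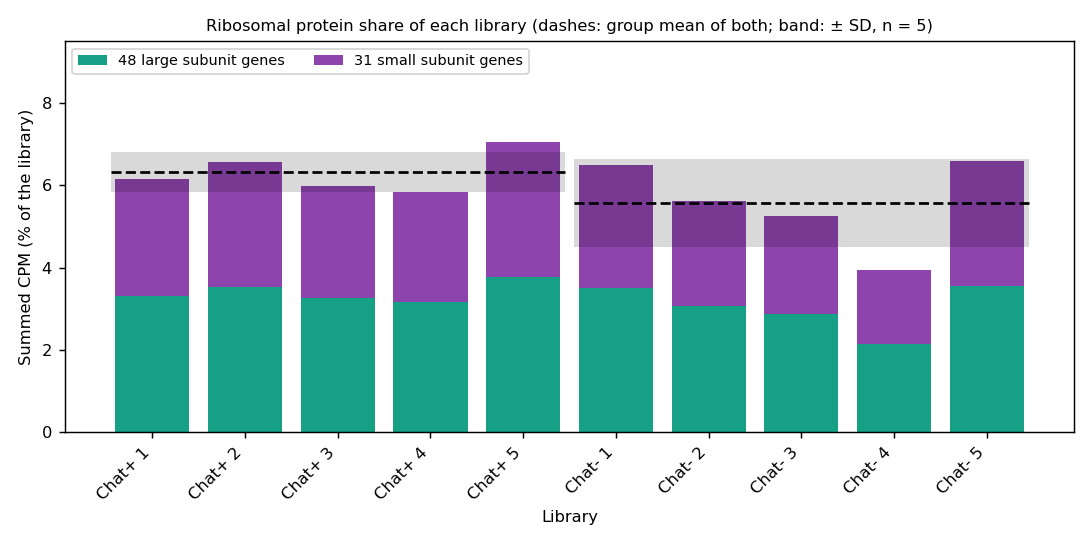
Summed CPM of the ribosomal protein genes as percent of each library (y axis) in the 5 Chat+ and 5 Chat- libraries (x axis), with large subunit genes in green and small subunit genes in purple; dashes are the group mean of both together and bands are ± SD (n = 5). Chat- replicate 4 is the lowest at 3.95%, and Chat- replicates 2 and 3, at 5.62% and 5.27%, also lie below every Chat+ library. Chat- replicates 1 and 5, at 6.48% and 6.58%, lie within the range of the Chat+ libraries, 5.85% to 7.06%.

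Much of the difference rested on that library. Chat- replicate 4 was the lowest of the 10 libraries for 61 of 79 members, while Chat+ replicate 5 was the highest for 32. Without Chat- replicate 4, 64 of 79 members were higher in Chat+ (against 49.6% of all genes) with a median log2 fold change of 0.09, against -0.002 over all genes. Then 2 of 79 members were higher at an unadjusted p under 0.05 (against 5.36% of all genes), and 0 passed the adjusted threshold, with a smallest adjusted p of 0.59. The 15 members lower in Chat+ in that comparison included Rpl17, Rpl8, Rpl11, Rps7 and Rps19. Near-identical listed copies, defined below, were found for 6 of the 15, against 21 of all 79 members. With mitochondrially encoded genes taken out of every library's total, the share was 6.51% ± 0.534 over the Chat+ libraries and 5.83% ± 0.957 over the Chat- libraries (SD, n = 5 each).

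**Figure D3:**
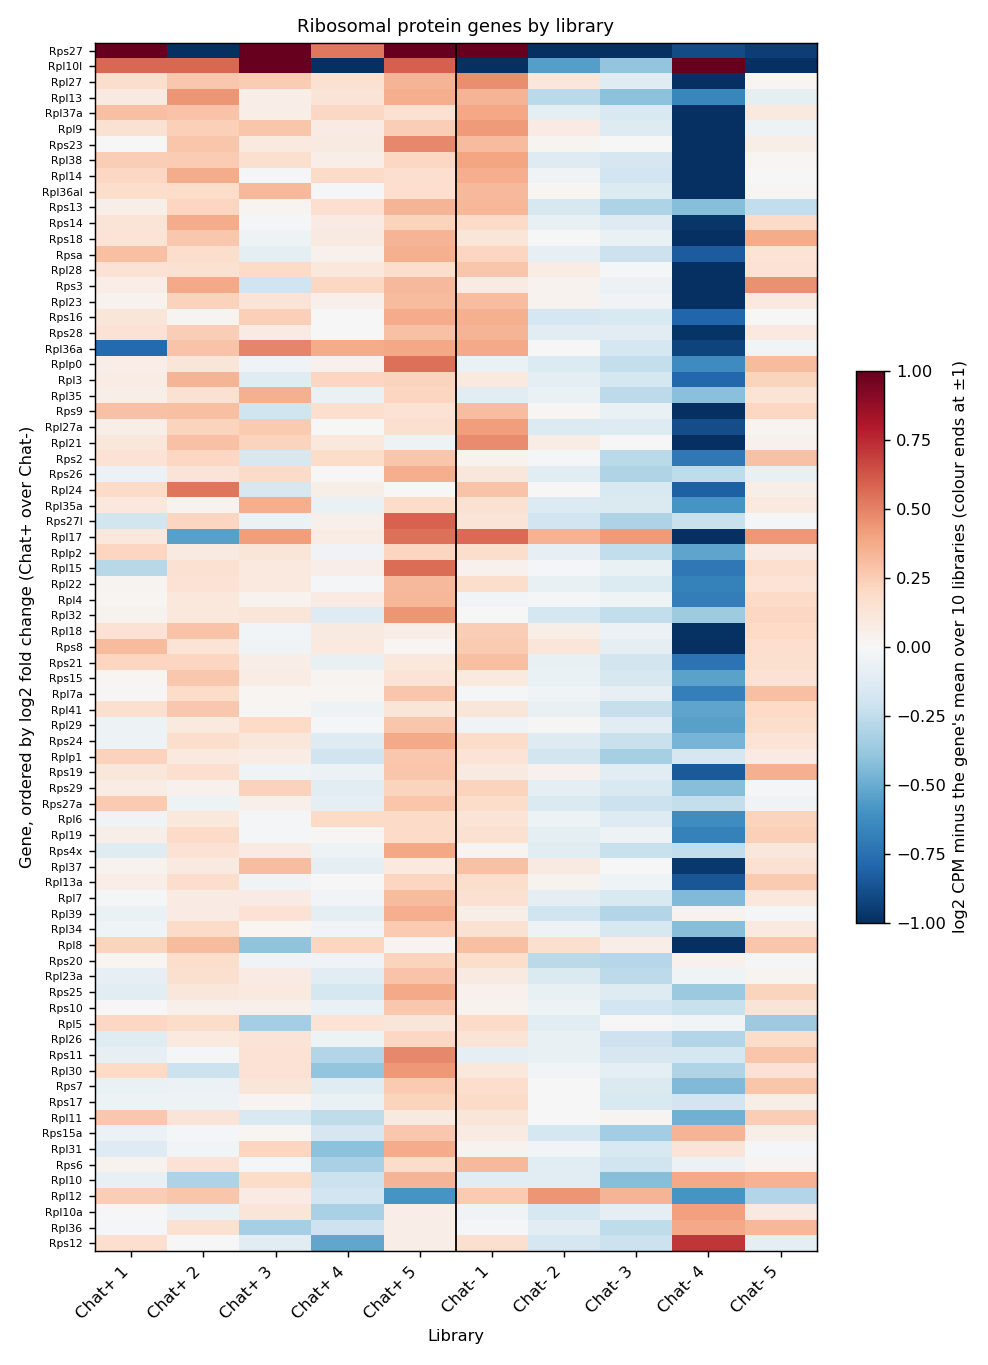
Log2 CPM of 77 of the 79 members (rows, ordered by log2 fold change) in each library (columns, Chat+ left of Chat-), minus the gene's mean over the 10 libraries, with red above and blue below that mean and the colour scale ending at ±1. The column of Chat- replicate 4 is blue for most genes and red for a few at the bottom such as Rps12, Rpl36, Rpl10a and Rpl10.

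Markers of other cells and states were read beside these values. The 6 cycling markers, Mki67, Top2a, Cdk1, Rrm2, Pcna and Mcm5, were all higher in Chat+ and summed to 349 to 563 CPM in Chat+ and 285 to 352 CPM in Chat-, and none of them passed. The plasma cell markers summed to 400 to 678 CPM in Chat+ and 351 to 428 CPM in Chat-, with 3 of 6 higher. The erythroid markers summed to 528 to 881 CPM in Chat+ and 449 to 1081 CPM in Chat-. The macrophage markers summed to 27.8 to 50.2 CPM in Chat+, against 23.7 to 107 CPM in Chat-. Chat- replicate 4 held that 107 CPM, and the other Chat- libraries ran from 23.7 to 33.2 CPM. The 3 listed markers of precursor B cells, of 6, summed to 0.930 to 2.51 CPM in Chat+, against 2.96 to 10.2 CPM in Chat-. The neutrophil markers summed to 19.9 to 103 CPM in Chat+ and 35.6 to 81.0 CPM in Chat-, and the stromal and endothelial markers to 269 to 346 CPM in Chat+, against 281 to 398 CPM in Chat-. The highest values of the precursor B cell and of the stromal and endothelial markers were also in Chat- replicate 4, and the other Chat- libraries reached 6.78 CPM and 307 CPM. The part of these cells in the ribosomal protein difference was not tested.

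Among single members, 4 had an unadjusted p under 0.05. Rpl13, a large subunit protein, had 464, 593, 458, 477 and 562 CPM in Chat+, against 552, 363, 329, 278 and 407 CPM in Chat-. Only Chat- replicate 1 reached into the Chat+ range, and the log2 fold change was 0.43 ± 0.16 (SE; adjusted p = 0.99 in limma). Summed with its 2 near-identical listed copies, the log2 fold change of Rpl13 was 0.22. Rpl35, which sits at the exit of the peptide tunnel, had 190, 202, 233, 174 and 211 CPM in Chat+, against 169, 174, 152, 136 and 200 CPM in Chat-. Its groups overlapped through the highest Chat- library, and its log2 fold change was 0.29 ± 0.12 (SE).

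Rps13, a small subunit protein, had 339, 377, 332, 366 and 413 CPM in Chat+, against 409, 291, 263, 243 and 275 CPM in Chat-. Chat- replicate 1 again lay among the Chat+ values, and the log2 fold change was 0.32 ± 0.13 (SE). Rps26, which sits at the exit of the mRNA channel, had 394, 448, 467, 412 and 526 CPM in Chat+, against 442, 380, 332, 343 and 389 CPM in Chat-. Chat- replicate 1 lay within the Chat+ range here too, and the log2 fold change was 0.25 ± 0.11 (SE). Without Chat- replicate 4 the log2 fold changes were 0.33 for Rpl13, 0.22 for Rpl35, 0.26 for Rps13 and 0.22 for Rps26.

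The starts of these 4 genes were read for the oligopyrimidine tract. The lines give 30 bases around the annotated start in RefSeq on GRCm38.p6, 5′ to 3′, with capitals for a tract, searched on the gene's strand only and defined as a C within 5 bases of the start followed by at least 4 bases that are C or T. The windows lie at chr2:39005117-39005146 for Rpl35 and chr10:128626492-128626521 for Rps26, both on the minus strand. They lie at chr8:123102335-123102364 on the plus strand for Rpl13, and at chr7:116334176-116334205 on the minus strand for Rps13. Rps6, the small subunit protein that S6 kinase phosphorylates, is added as a well-known member of this class, at chr4:86857353-86857382 on the minus strand.
Rpl35: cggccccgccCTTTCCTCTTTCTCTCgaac
Rps26: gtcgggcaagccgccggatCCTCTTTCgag
Rps6: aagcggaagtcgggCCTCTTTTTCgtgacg
Rpl13: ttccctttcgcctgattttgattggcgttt
Rps13: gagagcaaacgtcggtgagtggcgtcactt

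A RefSeq start was found for 59 of 79 members, in 70 of 32851 promoter entries. A tract was present in 30 of the 70 entries, or 42.9%, against 18.3% of all entries. The motif CCGGAAG, the core of sites for ETS factors such as GABP, was searched on both strands from 250 bases before to 50 bases after the start and was present in 35.7% of the members' entries, against 8.86% of all entries. Members with and without a tract had like medians: the 28 members with a tract had a median log2 fold change of 0.24, with 27 higher in Chat+, and the 31 members with an entry and no tract had a median of 0.23, with 28 higher. Both medians are from all 10 libraries. A match is a description of these letters and not a measured site. Annotated starts may lie some bases from the used ones, so members counted here as without a tract may still have one. The medians therefore cannot compare mRNAs with and without a tract.

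Rps27 had the largest log2 fold change of the family and the largest spread. It had 180, 10.7, 228, 68.3 and 171 CPM in Chat+, against 165, 11.98, 8.82, 25.4 and 24.7 CPM in Chat-. The values ran 25.9-fold from lowest to highest, with Chat+ replicate 2 as low as the low Chat- libraries and Chat- replicate 1 close to the high Chat+ libraries. The log2 fold change was 1.77 ± 0.88 (SE), with a 95% confidence interval from -0.15 to 3.69 and an adjusted p of 0.999 in limma.

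Rps27rt, with the coding sequence shown above, had 455, 906, 649, 663 and 730 CPM in Chat+, against 643, 640, 640, 1031 and 732 CPM in Chat-. The library with the lowest Rps27 in Chat+ was the one with the highest Rps27rt there. Summed, the pair had 634, 917, 878, 731 and 901 CPM in Chat+, against 808, 652, 648, 1057 and 757 CPM in Chat-. The sum spanned 1.67-fold over the 10 libraries, and averaged 812 ± 124 CPM in the Chat+ libraries and 785 ± 167 CPM in the Chat- libraries (SD, n = 5 each), a log2 difference of 0.06. Rps27 took 1.16% to 28.3% of the sum. Reads within the coding sequence cannot be assigned to either gene of the pair by their letters.

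Rps27l, the paralog with 76.1% identity over the coding sequence, had 18.1, 24.0, 19.8, 21.3 and 31.02 CPM in Chat+, against 22.5, 18.03, 16.6, 17.6 and 20.4 CPM in Chat-. The groups overlapped and the log2 fold change was 0.24 ± 0.17 (SE).

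Near-identical copies also touched the members with the lowest fold changes. A copy was defined as a listed gene whose transcripts hold at least 50% of the member's 31-base words. Rps27rt holds less than 50% of the words of Rps27 and was not counted. In the other direction, Rps27 transcripts held 91.6% of the words of Rps27rt. By this measure 21 members had 44 listed copies and 58 had none, and a median of 43.5% of a member's own words recurred in transcripts of other genes. Of the 5 members lower in Chat+, which were Rps12, Rpl36, Rpl10a, Rpl12 and Rpl10, all but Rpl12 had listed copies. When each member was summed with its copies, all 21 were higher in Chat+, with log2 fold changes from 0.05 to 0.31, and 78 of 79 members were higher in all, with a median of 0.22. The sums were formed after the values had been seen, and 0 passed.

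Rps12, a small subunit protein, had 260, 232, 214, 161 and 242 CPM in Chat+, against 258, 206, 199, 380 and 218 CPM in Chat-, a log2 fold change of -0.16 ± 0.18 (SE). Its copy Rps12-ps3 had 1262, 1354, 1078, 1161 and 1354 CPM in Chat+, against 1293, 998, 877, 410 and 1183 CPM in Chat-. Chat- replicate 4 was thus the highest library for Rps12 and the lowest for its copy. The sum averaged 1464 ± 146 CPM in the Chat+ libraries and 1204 ± 295 CPM in the Chat- libraries (SD, n = 5 each), a log2 fold change of 0.31. Rps12 alone was at -0.0019 without Chat- replicate 4.

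Rpl10a, a protein of the L1 stalk, had 441, 424, 482, 353 and 462 CPM in Chat+, against 432, 396, 414, 589 and 470 CPM in Chat-. Its copy Rpl10a-ps1 had 419, 523, 362, 503 and 581 CPM in Chat+, against 424, 389, 306, 0 and 489 CPM in Chat-, so it was listed at 0 in the library where Rpl10a was highest. The log2 fold change was -0.08 ± 0.13 (SE) for Rpl10a and 0.23 for the sum, which averaged 910 ± 85.3 CPM in the Chat+ libraries and 782 ± 139 CPM in the Chat- libraries (SD, n = 5 each). Rpl10a alone was at 0.01 without Chat- replicate 4.

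Rpl36, a large subunit protein, had 250, 282, 201, 219 and 266 CPM in Chat+, against 250, 234.7, 212, 329 and 318 CPM in Chat-. Its 3 copies together had 167, 198, 180, 185 and 176 CPM in Chat+, against 161, 154, 158, 2.07 and 186 CPM in Chat-. The split between gene and copies in Chat- replicate 4 was again unlike that in the other 9 libraries. The log2 fold change was -0.13 ± 0.14 (SE) for Rpl36 and 0.09 for the sum. Rpl36 alone was at -0.053 without Chat- replicate 4.

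**Figure D4:**
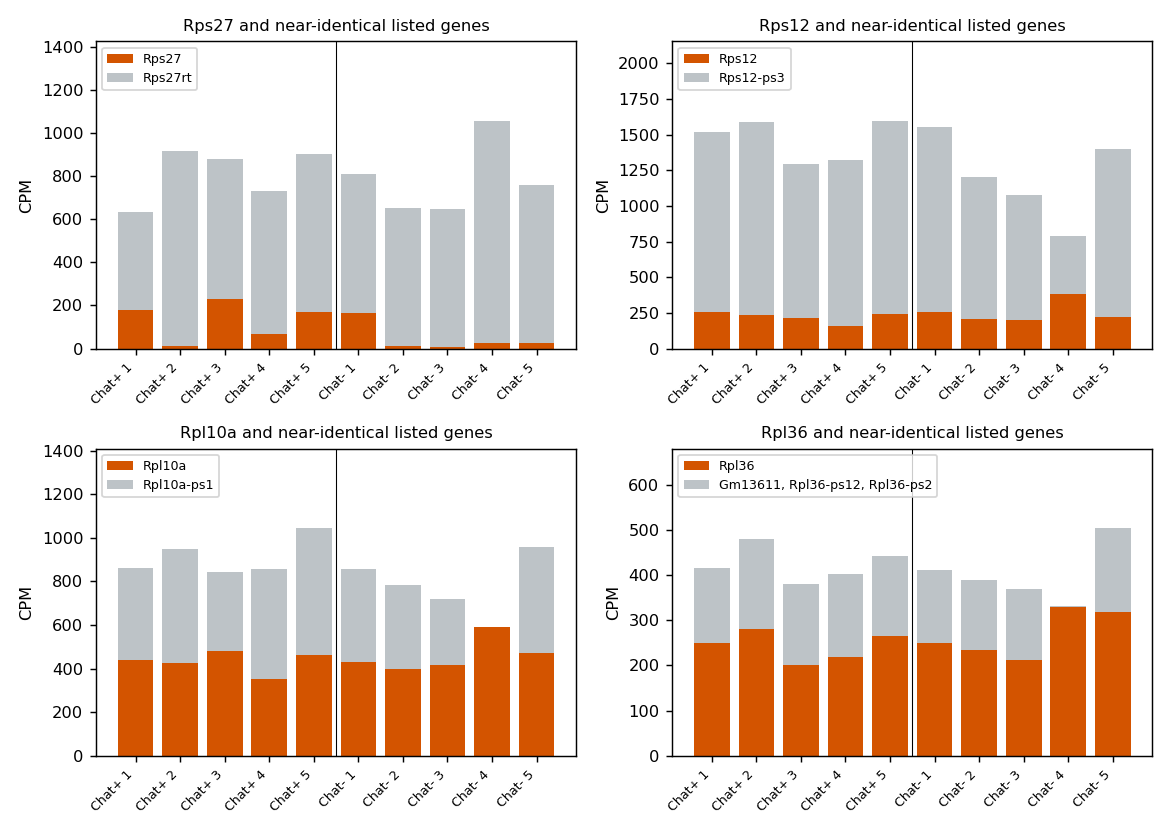
CPM (y axis) of Rps27, Rps12, Rpl10a and Rpl36 in orange with their near-identical listed genes stacked in grey, in the 5 Chat+ and 5 Chat- libraries (x axis). The orange part of Rps27 varies 25.9-fold while the stack varies 1.67-fold, and in Chat- replicate 4 the grey part of Rpl10a is 0 and that of Rpl36 is 2.07 CPM.

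Rpl10, an X-linked gene whose protein completes the large subunit late in assembly, averaged 308 ± 59.1 CPM in the Chat+ libraries and 317 ± 74.3 CPM in the Chat- libraries (SD, n = 5 each), with a log2 fold change of -0.03 ± 0.17 (SE). With its 2 copies, Rpl10-ps1 and Rpl10-ps3, the log2 fold change was 0.05. Rpl10 alone was at 0.059 without Chat- replicate 4. Rpl12, a protein at the base of the stalk, had 92.4, 94.7, 82.5, 68.5 and 51.9 CPM in Chat+, against 93.7, 106, 98.8, 51.8 and 63.6 CPM in Chat-. The groups overlapped almost fully, and the log2 fold change of -0.07 ± 0.22 (SE) was positive, at 0.07, without Chat+ replicate 5, and -0.22 without Chat- replicate 4.

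Rps6 averaged 659 ± 85.4 CPM in the Chat+ libraries and 657 ± 95.3 CPM in the Chat- libraries (SD, n = 5 each), a log2 fold change of 0.01 ± 0.13 (SE). Its 5 copies had 436.7 CPM in Chat- replicate 4 and at least 1079 CPM in the other 9 libraries, and with them the log2 fold change was 0.21. The sign of Rps6 alone turned with the scaling, to -0.04 after centring each library on its median gene. Without Chat- replicate 4 Rps6 alone was at -0.0091.

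The acidic stalk recruits elongation factors to the ribosome. Rplp0, its base, had 1757, 1831, 1643, 1732 and 2457 CPM in Chat+, against 1606, 1529, 1422, 1088 and 2096 CPM in Chat-. Chat+ replicate 5 and Chat- replicate 5 were each the highest of their group, the groups overlapped, and the log2 fold change was 0.30 ± 0.18 (SE), which was 0.18 without Chat- replicate 4. Rplp1 averaged 1495 ± 182 CPM in the Chat+ libraries and 1315 ± 181 CPM in the Chat- libraries, and Rplp2 averaged 1033 ± 72.6 CPM in the Chat+ libraries and 887 ± 165 CPM in the Chat- libraries (SD, n = 5 each). The log2 fold change was 0.19 ± 0.13 (SE) for Rplp1 and 0.24 ± 0.14 (SE) for Rplp2, and without Chat- replicate 4 it was 0.17 for Rplp1 and 0.14 for Rplp2. Rpsa, a small subunit protein that is also known as a laminin receptor precursor, averaged 1999 ± 248 CPM in the Chat+ libraries and 1651 ± 419 CPM in the Chat- libraries (SD, n = 5 each), a log2 fold change of 0.31 ± 0.19 (SE), which was 0.14 without Chat- replicate 4.

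The other members named by the rule overlapped between groups in the same way. Rpl38, which in mouse embryos is needed for translation of some Hox mRNAs, had 195, 195, 184, 172 and 190 CPM in Chat+, against 216, 150, 147, 78.5 and 167 CPM in Chat-. Its log2 fold change was 0.37 ± 0.21 (SE), and 0.16 without Chat- replicate 4, where its level was lowest. Rpl35a averaged 426 ± 48.3 CPM in the Chat+ libraries and 363 ± 68.7 CPM in the Chat- libraries (SD, n = 5 each), a log2 fold change of 0.25, which was 0.13 without Chat- replicate 4. Rps27a, which is made as a fusion with ubiquitin, averaged 369 ± 45.1 CPM in the Chat+ libraries and 326 ± 40.7 CPM in the Chat- libraries (SD, n = 5 each), a log2 fold change of 0.18. Rps4x, encoded on the X chromosome, averaged 2459 ± 343 CPM in the Chat+ libraries and 2172 ± 237 CPM in the Chat- libraries (SD, n = 5 each), a log2 fold change of 0.18.

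Levels per length ranged widely although the ribosome holds these proteins in about equal amounts. Per kilobase of transcript, Rpl13a was the highest at 6489 CPM in Chat+ and 5949 CPM in Chat-, followed by Rps24 at 3891 CPM per kilobase in Chat+ and 3420 in Chat-. The median over the 79 members was 774 CPM per kilobase. At the low end stood Rpl10l at 4.48 CPM per kilobase in Chat+ and 2.98 in Chat-, Rps27l at 45.8 in Chat+ and 38.2 in Chat-, and Rpl5 at 50.3 in Chat+ and 46.1 in Chat-. Rpl5, part of the 5S ribonucleoprotein that also restrains Mdm2, shares 44.7% of its words with other transcripts.

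Among the paralogs, Rpl10l, a retroposed gene known for its role in mouse spermatogenesis, had 4.73, 4.74, 7.28, 1.32 and 4.83 CPM in Chat+, against 1.499, 2.11, 2.36, 7.85 and 1.43 CPM in Chat-. A single Chat- library, replicate 4, was the highest of all 10, and a single Chat+ library, replicate 4, the lowest. The log2 fold change was 0.70 ± 0.54 (SE), and 1.11 without Chat- replicate 4. Rpl36al, a paralog of Rpl36a, had 72.1, 72.5, 80.0, 63.1 and 71.8 CPM in Chat+, against 79.9, 64.7, 57.9, 30.3 and 64.4 CPM in Chat-, a log2 fold change of 0.34, which was 0.11 without Chat- replicate 4.

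The remaining 52 members all had a higher mean log2 level in Chat+, with log2 fold changes from 0.01 to 0.48, and unadjusted p-values from 0.11 to 0.95. The 20 of the small subunit ran from 308 to 1960 mean CPM in Chat+ and from 260 to 1683 in Chat-, and their median log2 fold change was 0.21. The 32 of the large subunit ran from 84.7 to 2128 mean CPM in Chat+ and from 75.3 to 1847 in Chat-, with a median of 0.22. Without Chat- replicate 4, 42 of these 52 were higher in Chat+, and the medians were 0.07 for the small and 0.08 for the large subunit. A group chosen after the values were seen, 11 of the members known to be mutated in human Diamond-Blackfan anaemia, a failure of red cell formation, is a partial list of such genes. The 11 were drawn from all 79 members. This group had 11 of 11 higher with a median of 0.12, against 74 of 79 members with a median of 0.21. Without Chat- replicate 4 it had 7 of 11 higher with a median of 0.08, against 64 of 79 members with a median of 0.09.

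Measured against the family itself, no member passed either. After each library was centred on the median of the members, 59 members were higher in Chat+ and 20 lower, with a median log2 difference of 0.07, while the median over all genes was -0.10. The smallest adjusted p of a member was 0.94 in limma, with 0 members called, against 0.00692% of all genes. At an unadjusted p under 0.05 only Rpl13 was higher, at 0.29, against 1.76% of all genes.

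The spread within a group was also read. The median within-group SD of a member was 0.27 on the log2 scale, against 0.37 over all listed genes, and it was 0.18 without Chat- replicate 4. Centred on the family median it was 0.20, where the centring itself lowers the spread of members. Members also had higher levels than most genes. Their median log2 CPM averaged 9.17 in Chat+ and 9.03 in Chat- libraries, against 4.35 and 4.31 over all listed genes. The spread of genes at a like level was not compared. The least variable after centring were Rpl34 at 0.06, Rpl7 at 0.06 and Rps29 at 0.08. The most variable were Rps27 at 1.68, Rpl10l at 1.03, Rpl17 at 0.80, Rps12 at 0.44 and Rpl27 at 0.42.

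Lists of genes that make, regulate or use ribosomes were read in the same fit. Of 30 genes for ribosome biogenesis, 27 were higher in Chat+, and the median log2 fold change was 0.13. Without Chat- replicate 4, 14 were higher and the median was -0.01. Gnl3, which encodes the nucleolar protein nucleostemin, averaged 49.8 ± 3.63 CPM in the Chat+ libraries and 40.03 ± 6.99 CPM in the Chat- libraries (SD, n = 5 each), a log2 fold change of 0.33. Npm1, a histone and ribosome chaperone of the nucleolus, averaged 442 ± 45.2 CPM in the Chat+ libraries and 375 ± 37.5 CPM in the Chat- libraries (SD, n = 5 each), a log2 fold change of 0.24. Wdr12, of the PeBoW complex in large subunit assembly, was at 0.25. Without Chat- replicate 4 the log2 fold changes were 0.22 for Gnl3, 0.20 for Npm1 and 0.20 for Wdr12.

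Of 20 RNA polymerase I genes, 17 were higher in Chat+, and the median log2 fold change was 0.09. Leaving out Chat- replicate 4, 8 were higher and the median was -0.01. Polr2l, a subunit shared by RNA polymerases I, II and III, averaged 29.6 ± 2.97 CPM in the Chat+ libraries and 21.02 ± 7.23 CPM in the Chat- libraries (SD, n = 5 each), a log2 fold change of 0.57, which was 0.32 without Chat- replicate 4. Taf1b was at 0.26 and Polr1a, the largest subunit, at 0.16. Of 21 listed genes for elongation factors and other mRNAs with an oligopyrimidine tract, out of 25 on the list, 20 were higher with a median of 0.11, and without Chat- replicate 4, 16 were higher with a median of 0.10. Eif3k was at 0.20 (0.16 without that library) and Nap1l1 at 0.17 (0.11 without that library). Rack1, the scaffold on the small subunit, was at 0.25 (0.17 without that library).

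Of 25 initiation factors, 21 were higher in Chat+, and the median log2 fold change was 0.09. With Chat- replicate 4 left out, 13 were higher and the median was 0.04. Eif2s2 was at 0.23, Eif3i at 0.19 and Eif3m at 0.16, and these were 0.17, 0.10 and 0.09 without that library. Of 20 regulators around mTORC1 and LARP1, 13 were higher with a median of 0.07, and 10 with a median of 0.002 without Chat- replicate 4. Rheb, the activator of mTORC1, was at 0.26 (0.20 without that library). Pdcd4, an inhibitor of Eif4a, was at 0.21 (0.13 without that library), and Rraga, a Rag GTPase, at -0.17 (-0.13 without that library).

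Of 9 listed Myc network genes, 4 were higher in Chat+, and their median log2 fold change was -0.002. Myc, which drives ribosome biogenesis, had a mean of 62.0 ± 19.4 CPM in the Chat+ libraries and 40.8 ± 8.90 CPM in the Chat- libraries (SD, n = 5 each), a log2 fold change of 0.58 with an unadjusted p of 0.013 and an adjusted p of 0.87 in limma. Mxd3 was at 0.85 and Mnt, a repressor that competes with Myc for Max, at -0.27. Without Chat- replicate 4 the log2 fold changes were 0.46 for Myc, 0.995 for Mxd3 and -0.36 for Mnt. No gene of these lists passed the adjusted threshold.

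Ribosomal proteins and related genes whose symbols fall outside the rule, among them the binding protein Rps19bp1, were also read. Of 7 listed genes, 5 were higher in Chat+, and the median log2 fold change was 0.07; leaving out Chat- replicate 4, 4 were higher and the median was 0.01. Rps3a1 averaged 2143 ± 108 CPM in the Chat+ libraries and 1743 ± 622 CPM in the Chat- libraries (SD, n = 5 each), a log2 fold change of 0.39, which was 0.12 without Chat- replicate 4. Fau, which fuses a ubiquitin-like protein to a small subunit protein, was at 0.07, and at -0.05 without Chat- replicate 4.

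**Figure D5:**
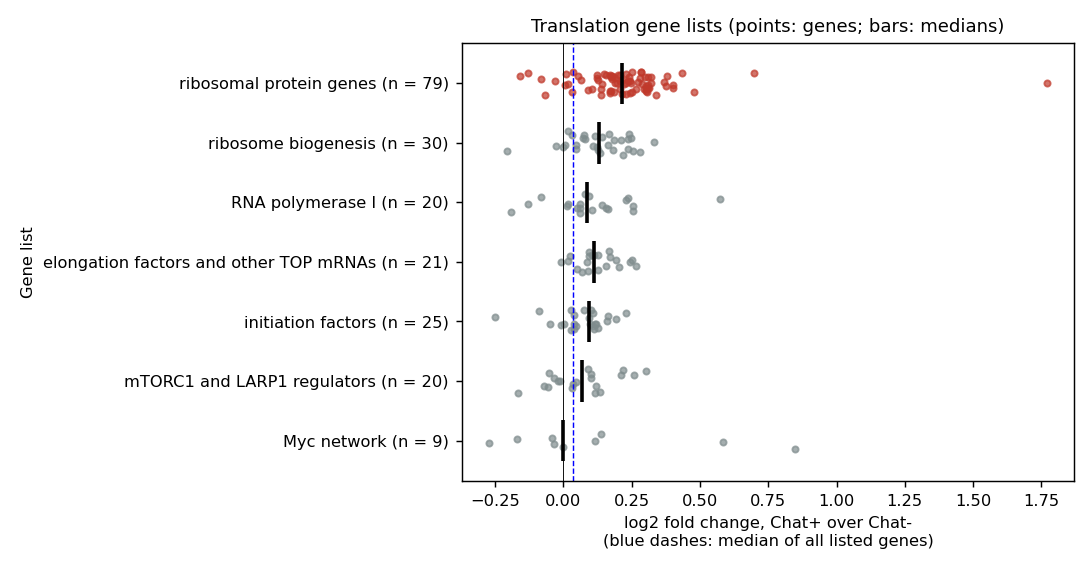
Log2 fold change, Chat+ over Chat- (x axis), of the ribosomal protein genes in red and of 6 lists of translation genes in grey (y axis), where points are genes, black bars are list medians and blue dashes are the median of all listed genes at 0.04. With all 10 libraries the medians are 0.21 for the ribosomal protein genes and between -0.002 and 0.13 for the other lists; without Chat- replicate 4 the ribosomal protein genes are at 0.09 and the elongation factors and other mRNAs with a tract at 0.10.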

How the data were processed

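Per the labels' protocols, directional Illumina libraries were made from column-purified RNA of flow-sorted cells. Per the submitters' processing notes, cutadapt 2.6 and Salmon 0.14.2 were used, with GRCm38.p6. The sources used here do not give the annotation, the strand setting or the CPM tool. Salmon divides reads that match several transcripts by a model, so levels of near-identical genes depend on it.

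The deposited values are log2 values made by the authors. All libraries share the lowest value, -3.1228, and with that offset of 0.1148 CPM removed each sums to 1000000 CPM. Depth was estimated from the step between low values. Under 1 CPM, only 41.1% to 48.1% of the values were whole reads (tolerance 0.01), so no count model was used.

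limma 3.58.1 in R 4.3.3 (lmFit, eBayes with trend) was run on all 14450 genes, with no covariate, a two-sided test and Benjamini-Hochberg adjustment at 0.05. It was tested on simulated data. Fold changes keep the deposited offset; CPM means were taken without the offset. GENCODE M21 gave symbols to 14374 of the gene IDs, and gave transcript lengths and 31-base words. Words were compared along the transcripts' own strand.

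Members and lists were chosen with earlier results of these data known. Named were up to 8 members with the smallest p in each direction, paralogs ending in l, Rplp0, Rplp1, Rplp2, Rpsa, Rps4x, Rps27a, Rps6, and the 3 highest and 3 lowest per kilobase; of each other list, up to 3 genes with the smallest p. Rpl17, Rpl8, Rpl11, Rps7, Rps19, Rpl34, Rpl7, Rps29, Rpl27 and Fau were named after their values were seen. Some genes that this rule names are not reported here. Alternatives were scaling, offset, a filter on low values, the variance model, library weights, a replicate block, single libraries left out and other member sets.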

Additional observations from a re-analysis of the deposited data

Results flagged for a closer look

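Single libraries stood far from the other 4 of their group in 5 of the 60 groups of 5 values examined, and chance flags about 1 in 20 groups. Of these 5, 2 were in Chat- replicate 4. The 60 groups did not cover all 79 members, so these counts do not describe that library over the family. Rpl10l was at 0.52 log2 CPM in Chat+ replicate 4, below the other Chat+ libraries, and at 2.99 log2 CPM in Chat- replicate 4, above the other Chat- libraries. Rplp0 was at 11.3 log2 CPM in Chat+ replicate 5, above the other Chat+ libraries. Rpl13a was at 10.7 log2 CPM in Chat- replicate 4, below the other Chat- libraries. Rpl5 was at 5.76 log2 CPM in Chat+ replicate 3, below the other Chat+ libraries.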

How the results depend on the processing

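No member passed the adjusted threshold under any of the alternatives run, and the same held for the lists of translation genes and for the comparison relative to the family median. The smallest adjusted p of a member was 0.105 or more, and relative to the family median 0.0657 or more, both lowest with a replicate block without Chat- replicate 4. The members' median log2 fold change stayed positive, from 0.09 to 0.28 when single libraries were left out and from 0.11 to 0.24 otherwise, and the difference in share was 0.332 to 0.991 percentage points when single libraries were left out. The count of members higher at an unadjusted p under 0.05, 4 as reported, was 1 with median centring, 1 without the mean-variance trend, and 0 to 16 with single libraries left out: 0 without Chat- replicate 3 and 16 without Chat- replicate 1. Over all genes, 1 passed as reported, 3 without the mean-variance trend, 105 with library weights, and 1 to 6 with single libraries left out. The cause was not tested.

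The labels do not say whether shared replicate numbers pair the samples, and the main fit did not treat them as pairs. Deviations of same-numbered libraries from their group means correlated at 0.226, 0.0712, -0.0640, -0.202 and 0.141. For 3 of 5 Chat+ libraries the best match was the Chat- library of their own number. These values do not settle whether the samples are paired. With the replicate block, 8 members were higher at an unadjusted p under 0.05 and 6 genes passed in all. With the replicate block without Chat- replicate 4, these counts were 12 and 82.

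Of 540 alternative values for the 27 named members, 29 turned in sign, in 7 genes. With library weights, Rpl36 was at 0.018, Rpl10 at 0.039 and Rps6 at -0.026. With the block without Chat- replicate 4, Rps12 was at 0.11, Rpl10a at 0.081, Rpl10 at 0.11 and Rpl13a at -0.0018. With copies summed, chosen after seeing the data, Rpl36 was at 0.093, Rps12 at 0.31, Rpl10a at 0.23 and Rpl10 at 0.048. Rps6 was at -0.036 with median centring, -0.029 with quantile normalization and -0.023 with mitochondrial genes out of the total. With single libraries left out, Rpl10 ran from -0.14 to 0.059, Rpl10a from -0.13 to 0.0099, Rpl12 from -0.22 to 0.070, Rps6 from -0.044 to 0.086 and Rpl13a from -0.021 to 0.26. Estimated depth limits Rpl10l most, at 1.32 CPM in its lowest library.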
